A study of Mus musculus with 6 samples.

Results

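Copy number was examined at 10 genes that encode receptor tyrosine kinases named in mesothelioma, namely Met, Egfr, Erbb2, Pdgfra, Pdgfrb, Fgfr1, Igf1r, Axl, Kit and Kdr. A gene's members were the non-control probes that carried its name in the file of the denser ARF-128 array, and the same probe names were then read on every other array. All 10 genes were found, among 24702 gene names that lie on 1 autosome. They held 113 of the 232020 probes with a position on the denser design, and 18 of the 113 were also present on the sparser design. The measurement was array comparative genomic hybridisation, in which fluorescent genomic DNA of a tumour and of a normal animal bind together to spotted probes. The tumour was labelled with Cy5 and its C57BL/6J partner with Cy3, so a log2 ratio above 0 means more tumour DNA. The tumours were ARF-129, ARF-128, ARF-112, ARF-110 and ARF-104, described as primary malignant mesothelioma cells except ARF-104, for which no cell type is stated. The series' design names 4 Arf (+/-) mice, the titles name 5 tumours, and which tumour lies outside the 4 is not known. ARF-110 was read on the sparser design alone, ARF-104, ARF-112 and ARF-129 on the denser design alone, and ARF-128 on both, the denser array under the title ARF-128PlusMinus. Unless stated, ARF-128 stands for its denser array. There is 1 group of tumours and no group of control animals, so the tests below compare the 5 tumours with the C57BL/6J DNA or a gene with its own neighbourhood. The labels give each tumour 1 number and do not describe the animals, so the p-values measure the spread between these samples.

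Receptor tyrosine kinases sit in the cell membrane, bind a growth factor outside the cell, pair up and phosphorylate each other and their adaptors inside it. The adaptors pass the signal to the RAS-MAPK and PI3K-AKT pathways, which drive growth, survival and movement. In human mesothelioma MET, EGFR and AXL are often reported as active, commonly without amplification of the gene. An amplification that selects 1 receptor raises the gene above its neighbours, whereas the gain of a chromosome or an arm lifts gene and neighbours alike. For that reason each gene's own probes were set against the mean of all other probes within 1 Mb on either side, called the flank here.

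The probes are single-stranded 45 to 60 base oligonucleotides, and their letters are shown because values within a gene differed from probe to probe. For Met, Egfr, Erbb2 and Igf1r the lines give the probe farthest below and the probe farthest above the flank, on average over the denser arrays, among probes on the same side of the flank on every array that read them. For Kdr the probe farthest above the flank is followed by the gene's single probe that is on both designs. Capitals mark the longest run without G or C. Positions are mm7 as given in the deposited files, which state no strand.
Met below, chr6:17474709-17474768: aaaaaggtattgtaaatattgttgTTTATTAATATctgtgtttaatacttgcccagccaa
Met above, chr6:17493892-17493951: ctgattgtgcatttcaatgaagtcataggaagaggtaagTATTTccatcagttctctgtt
Egfr below, chr11:16715621-16715680: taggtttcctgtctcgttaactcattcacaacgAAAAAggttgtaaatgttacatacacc
Egfr above, chr11:16785677-16785736: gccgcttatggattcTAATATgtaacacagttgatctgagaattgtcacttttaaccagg
Erbb2 below, chr11:98535639-98535698: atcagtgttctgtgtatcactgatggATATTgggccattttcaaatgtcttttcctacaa
Erbb2 above, chr11:98541998-98542048: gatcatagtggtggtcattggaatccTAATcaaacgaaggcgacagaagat
Igf1r below, chr7:64072391-64072450: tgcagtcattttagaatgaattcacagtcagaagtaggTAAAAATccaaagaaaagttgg
Igf1r above, chr7:63983877-63983936: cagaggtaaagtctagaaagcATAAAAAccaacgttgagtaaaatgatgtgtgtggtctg
Kdr above, chr5:75370223-75370282: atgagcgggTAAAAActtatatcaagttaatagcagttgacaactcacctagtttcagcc
Kdr on both designs, chr5:75395748-75395807: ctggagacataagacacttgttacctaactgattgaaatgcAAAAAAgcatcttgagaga

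The arrays differed in precision. Probe noise, computed as an SD from differences between neighbours, was 0.153 in ARF-110, between 0.363 and 0.485 in ARF-104, ARF-112 and ARF-129, and 0.775 in ARF-128 (0.430 on its sparser array). The median red signal stood 4.14 to 11.1 times above the red background. At Cdkn2a, whose locus encodes Arf, the mean log2 ratio of the probes was -0.64 for ARF-129, -1.08 for ARF-128, -1.098 for ARF-112, -0.14 for ARF-110 and -3.30 for ARF-104. The labelled cell type cannot be checked from DNA, and a change in some of the cells cannot be told apart from a smaller change in all of them.

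The receptor genes lay close to their neighbourhoods on average. In limma's fit over 19803 genes, 0 of the 10 passed an adjusted p of 0.05 for the difference from the flank, and 0 had an unadjusted p under 0.05 (adjusted p from 0.218 to 0.877). Over all genes 17.3% passed, 8.75% higher and 8.54% lower than their flanks, and 40.7% had an unadjusted p under 0.05. The share was smaller for genes with more probes, at 26.1% with 1 probe, 19.2% with 2 or 3, 13.6% with 4 to 9 and 5.37% with 10 or more. The median absolute mean difference from the flank was 0.0369 for the 10 genes, 0.1503 over all genes and 0.101 over all genes with at least 4 probes. The 95% intervals of the mean difference ran from -0.32 at the lowest, for Fgfr1, to 0.38 at the highest, for Kdr. They all ended below 0.58, the value of 1 extra copy in every cell of a diploid tumour, and above -1, the value of 1 missing copy. These intervals concern the mean over 5 tumours, so they bear only on a change shared by the tumours. A gain or loss in 1 tumour alone moves the mean less and is not excluded by them. With scan day as a random block 0 receptor genes and 0 of all genes passed (1443 higher and 1435 lower at an unadjusted p under 0.05). The mean also depended on the probes: on the 18 probes of both designs alone, the differences of Egfr (-0.36), Erbb2 (0.42), Pdgfra (0.48) and Axl (0.37) passed, with adjusted p from 0.0298 to 0.0381. On those probes 26.7% of all genes passed.

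**Figure D1:**
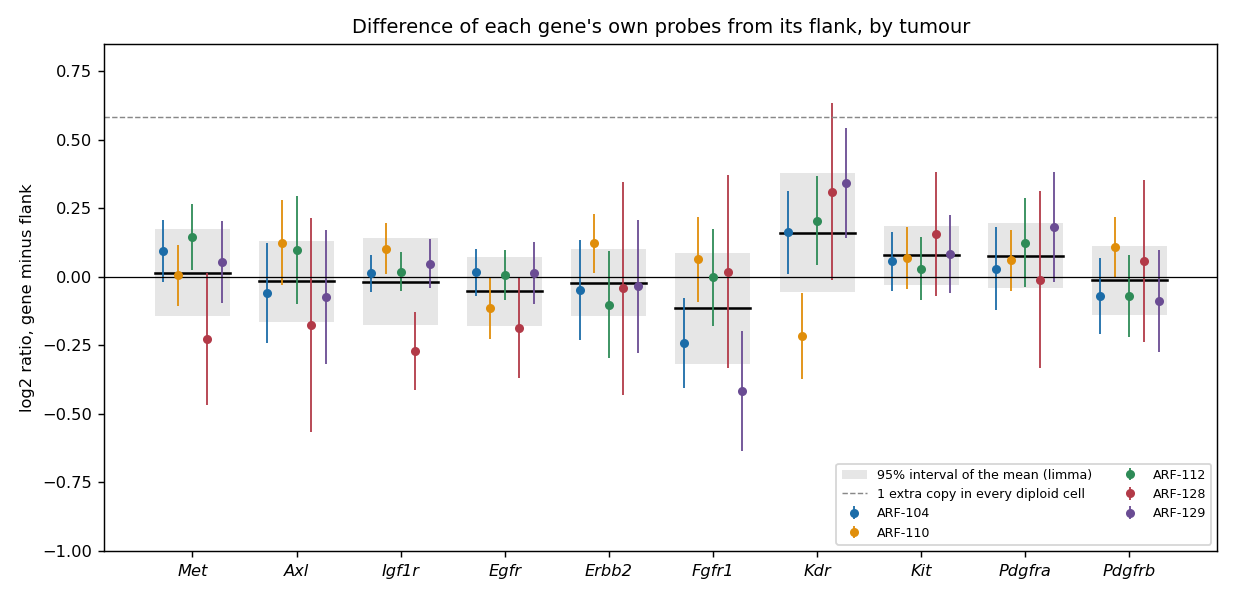
Mean log2 ratio of each gene's own probes minus that of its flank, by gene (x axis) and tumour (colours). Error bars are 1 probe error, black lines are means over 5 tumours, grey boxes are limma's 95% intervals and the dashed line is 1 extra copy in a diploid cell. Every grey box covers 0 and ends below the dashed line, which for a mean over 5 tumours does not exclude a gain in 1 of them.

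Within single tumours the result was alike. A probe error was computed for each gene and tumour from the array's probe noise and the numbers of own and flank probes, and it ranged from 0.0672 for Igf1r in ARF-104 to 0.391 for Axl in ARF-128. Of the 50 pairs of a gene and a tumour, 0 were above and 0 below the flank by 2 probe errors or more, where 3.34% of all pairs of the genome were above and 4.73% below. The largest departure was -1.90 probe errors, for Fgfr1 in ARF-129. In 44 of the 50 pairs 2 probe errors came to less than 0.58. The other 6 pairs were all in ARF-128, at genes with 4 to 7 probes, where a focal gain of 1 copy was not detectable at this noise.

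Some receptors lay on broad segments that were gained or lost. Chromosomes were divided into segments of at least 5 probes, and a segment mean of 0.25 or more in either direction was called a gain or a loss. Gains covered 4 of the 50 pairs (8%) and losses 6 (12%), where 14.3% and 8.82% of all pairs were called gained and lost. Met was gained in ARF-104, and Fgfr1 in ARF-129, ARF-128 and ARF-104. The losses were Fgfr1 in ARF-110, and Pdgfra, Kit, Kdr, Igf1r and Axl in ARF-129. By tumour the calls took 6 of 10 receptor genes from ARF-129, 1 from ARF-128, 0 from ARF-112, 1 from ARF-110 and 2 from ARF-104, where 50.02%, 10.71%, 21.79%, 16.36% and 16.55% of all genes were called. Without ARF-104 there were 2 gains, and without ARF-129 there was 1 loss. With normexp background correction, an alternative treatment of the spot signals, the 4 gains and the loss of Fgfr1 in ARF-110 were called again. The 5 losses of ARF-129 then lay between -0.08 and -0.05 and were not called. This correction starts from the mean spot signals instead of the processed ones. It also adds an offset of 50 to both the red and the green signal, which pulls ratios toward 0. The threshold was kept at 0.25, and which of these steps changed the calls was not tested. The gains were smaller too, with 0.27 in place of 0.37 for Met in ARF-104. For Fgfr1 in ARF-129 the segment mean was 0.28 in place of 0.58.

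**Figure D2:**
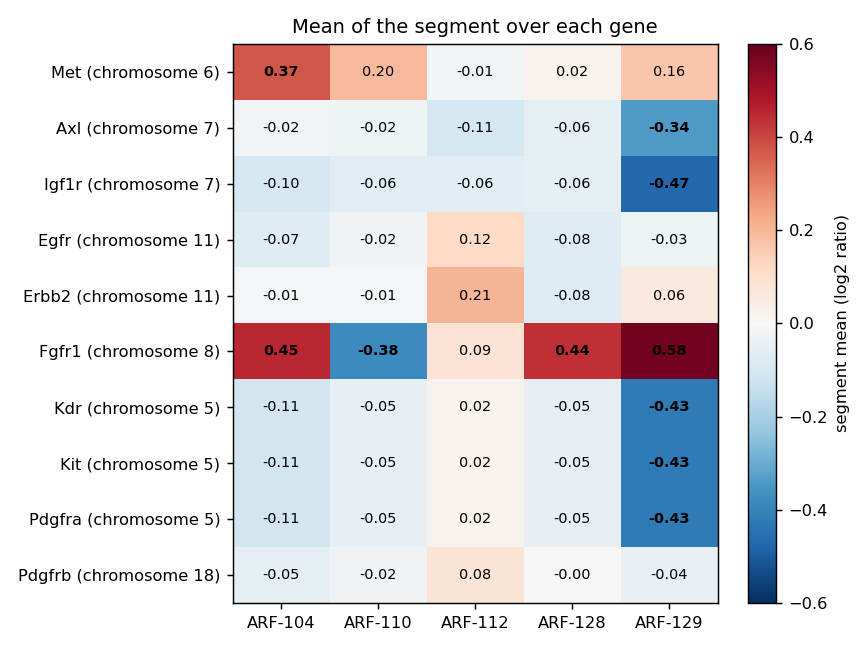
Mean log2 ratio of the segment over each receptor gene (rows) in each tumour (columns), with blue for less and red for more tumour DNA. Bold numbers are called gains or losses. Fgfr1 has 3 gains and 1 loss, and 5 of the 6 losses lie in ARF-129.

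No segment ended near a receptor. In 12 of the 50 pairs the whole chromosome was 1 segment, and in the other pairs the nearest end lay at least 4.22 Mb from the gene, the smallest distance being that of Erbb2 in ARF-104. The segment that held Met in ARF-104 was 52.6 Mb long, and the shortest segment over any receptor was 18.4 Mb, at Egfr in ARF-110. Because a segment needs 5 probes, a change that covered only the 4 probes of Erbb2 or of Axl could not have been called this way. In ARF-110, where each receptor was read by 1 to 3 probes, the same holds for all 10 genes. Each new segment also carried a penalty of 5 log n, scaled by the noise variance. A change over few probes therefore had to be large to be called, also at receptors with 5 probes or more. How large was not computed, so the absence of a segment end does not exclude a focal change of 1 copy.

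Met, the receptor of hepatocyte growth factor, was read by 11 probes on chr6:17432787-17502638 (mm7). Its own probes averaged 0.23 for ARF-129, -0.15 for ARF-128, 0.15 for ARF-112, 0.23 for ARF-110 and 0.47 for ARF-104. The flanks averaged 0.18, 0.08, 0.00, 0.22 and 0.38 in the same order. The gene was therefore above 0 in 4 of 5 tumours, and in ARF-104, ARF-110 and ARF-129 its flank was raised with it. The own probes averaged 0.19 ± 0.22 and the flank 0.17 ± 0.15 (SD, n = 5 tumours), and the difference of 0.02 had a 95% interval from -0.14 to 0.17. Against 0, limma gave an adjusted p of 0.241 for Met, where 14.8% of 19905 genes passed, 8.11% higher and 6.73% lower. This call rested on which ARF-128 array was used. On the sparser array the 2 Met probes averaged 0.59, and the same 2 probes averaged -0.45 on the denser array. With the sparser array in place of the denser one the mean of Met was 0.33 (limma adjusted p = 0.0274), and with the mean of both arrays it was 0.26 (adjusted p = 0.0436). All genes passed more often in those settings too, at 26.1% and 27.3%. Over the 16 alternatives of Met the adjusted p ran from 0.0274 to 0.593.

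Axl, the receptor of GAS6, was read by 4 probes on chr7:22532441-22552757. Its own probes averaged -0.36 for ARF-129, -0.17 for ARF-128, 0.03 for ARF-112, 0.12 for ARF-110 and -0.04 for ARF-104. ARF-129 was the lowest, and its flank, at -0.29, was low too. The own probes averaged -0.08 ± 0.19 over the tumours and the flank -0.07 ± 0.13. Igf1r, the receptor of the insulin-like growth factors, lies on the same chromosome at chr7:63814793-64072450 and had the most probes, 36. Its own probes averaged -0.37 for ARF-129, -0.21 for ARF-128, 0.01 for ARF-112, 0.04 for ARF-110 and -0.03 for ARF-104. The flanks averaged -0.42, 0.06, 0.00, -0.06 and -0.04 in that order. In ARF-129 gene and flank were both low, on a segment of 78.1 Mb with a mean of -0.47, whereas in ARF-128 only the gene's probes were low. The difference in ARF-128 was -0.27, or -1.88 probe errors. On the sparser ARF-128 array the 3 Igf1r probes averaged 0.09 and the flank -0.03. The same 3 probes averaged 0.41 on the denser array.

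**Figure D3:**
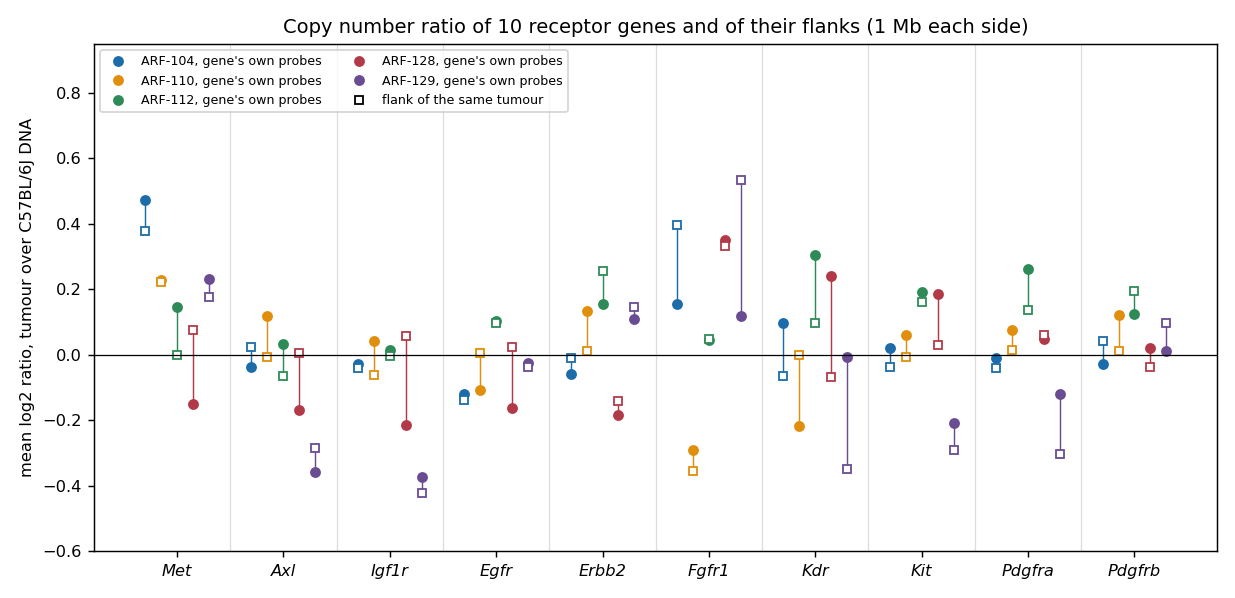
Mean log2 ratio (y axis) of each gene's own probes (filled circles) and of its flank (open squares), by gene and tumour, with a line joining both values of a tumour. Fgfr1 spreads from -0.29 to 0.35 and its flanks spread from -0.36 to 0.53, while the 5 values of Pdgfrb lie between -0.03 and 0.12.

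Egfr and Erbb2 belong to the ERBB family. EGFR binds EGF and related factors, and ERBB2 has no known ligand and signals as the partner of the others. Egfr was read by 21 probes on chr11:16708664-16865021, with own means of -0.02 for ARF-129, -0.16 for ARF-128, 0.10 for ARF-112, -0.11 for ARF-110 and -0.12 for ARF-104. No tumour was called gained or lost there, and the largest difference from the flank was -0.19, in ARF-128. Erbb2 was read by 4 probes on chr11:98525873-98542048, with own means of 0.11 for ARF-129, -0.18 for ARF-128, 0.16 for ARF-112, 0.13 for ARF-110 and -0.06 for ARF-104. Its flank had the largest value in ARF-112, at 0.26, on a segment with a mean of 0.21 that stayed below the threshold. The mean difference from the flank was -0.05 ± 0.09 for Egfr and -0.02 ± 0.08 for Erbb2 (SD, n = 5).

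Pdgfra, Kit and Kdr lie side by side on chromosome 5, at chr5:74576684-74615973, chr5:74996137-75073640 and chr5:75362751-75395807. PDGFRA binds platelet-derived growth factors, KIT binds stem cell factor and KDR, also called VEGFR2, is the main receptor of VEGF-A on endothelium. In each tumour the 3 genes lay on 1 common segment, so the same value holds for all of them. That segment had a mean of -0.43 over 64.9 Mb in ARF-129, -0.11 in ARF-104, and from -0.05 to 0.02 in the other tumours. The genes' own probes did not follow 1 value. Pdgfra averaged -0.12 for ARF-129, 0.05 for ARF-128, 0.26 for ARF-112, 0.08 for ARF-110 and -0.01 for ARF-104. Kit averaged -0.21, 0.19, 0.19, 0.06 and 0.02 in the same order. ARF-129 was the lowest for both genes. Kdr averaged -0.01, 0.24, 0.30, -0.22 and 0.10, and for this gene ARF-110 was the lowest. The 3 genes lie within 1 Mb of each other, so the flank of each held probes of the others. A change common to them also shifts those flanks. With receptor probes left out of the flanks, the mean differences were 0.09 for Pdgfra, 0.09 for Kit and 0.18 for Kdr. None passed (limma adjusted p from 0.172 to 0.22), where 17.3% of all genes did.

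Kit was above its flank in 5 of 5 tumours, by 0.08 for ARF-129, 0.16 for ARF-128, 0.03 for ARF-112, 0.07 for ARF-110 and 0.06 for ARF-104. It was the 1 gene of the 10 on the same side in every tumour, where 37.3% of all genes were. The mean of 0.08 ± 0.05 did not pass (limma adjusted p = 0.226), and each single difference was below 1 probe error. Kdr had the largest mean difference, 0.16 ± 0.22, above the flank in 4 of 5 tumours, with a difference of -0.22 in ARF-110 (limma adjusted p = 0.218). Without ARF-110 the mean was 0.26 (limma adjusted p = 0.0235, with a range from 0.0235 to 0.927 over 17 alternatives), in a setting where 32.1% of all genes passed. ARF-110 read Kdr with a single probe, the last sequence shown above. That probe was below 0 on all 6 arrays, at -0.24 for ARF-129, -0.79 and -0.47 for ARF-128 (denser and sparser), -0.05 for ARF-112, -0.22 for ARF-110 and -0.16 for ARF-104. Against the flank it was not on 1 side throughout, being 0.11 above it in ARF-129 and below it on the other arrays. The Kdr probe shown before that one read between 0.38 and 1.105 on the 4 denser arrays. It was chosen as the probe farthest above the flank on these arrays, so its high values are not a result. On that shared probe alone, with the flank held to shared probes too, the mean difference of Kdr from the flank was -0.16.

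Fgfr1, a receptor of fibroblast growth factors, varied most between tumours. It was read by 5 probes on chr8:24290494-24322523, and the segments over it had means of 0.58 for ARF-129, 0.44 for ARF-128, 0.09 for ARF-112, -0.38 for ARF-110 and 0.45 for ARF-104. The gain in ARF-128 was also called on its sparser array, with a segment mean of 0.41. In ARF-128 the segment was the whole of chromosome 8 as measured, in ARF-129 it was 100.2 Mb long, in ARF-104 32.9 Mb and in ARF-110 48.2 Mb. The gene's own probes averaged 0.12 for ARF-129, 0.35 for ARF-128, 0.05 for ARF-112, -0.29 for ARF-110 and 0.16 for ARF-104. In ARF-104 and ARF-129 their differences from the flank were -0.24 and -0.42, or -1.46 and -1.90 probe errors, while in ARF-128 the difference was 0.02. The single Fgfr1 probe on both designs read 0.79 for ARF-129, 0.29 and 0.69 for ARF-128 (denser and sparser), 0.31 for ARF-112, -0.29 for ARF-110 and 0.64 for ARF-104. The mean difference of -0.11 ± 0.21 from the flank did not pass (limma adjusted p = 0.336).

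Pdgfrb, the other receptor of platelet-derived growth factors and a marker of stromal cells, had the smallest spread over the 5 tumours. Its 7 probes on chr18:61435441-61474437 averaged 0.01 for ARF-129, 0.02 for ARF-128, 0.12 for ARF-112, 0.12 for ARF-110 and -0.03 for ARF-104. The segments over it had means between -0.05 and 0.08. Its 2 probes on both designs averaged -0.57 on the denser ARF-128 array and 0.08 on the sparser one. The SD over tumours was 0.07, the smallest of the 10 genes, and that of Fgfr1 was the largest at 0.23. Ordered by their mean against 0, the genes ran from Met (0.19) through Kdr (0.08), Fgfr1 (0.08), Pdgfra (0.05), Kit (0.05), Pdgfrb (0.05), Erbb2 (0.03), Egfr (-0.06) and Axl (-0.08) to Igf1r (-0.11). Every step in this order was smaller than the SDs of the genes on either side of it. In limma's fit 0 of 10 passed against 0, where 14.8% of all genes did. Of the 10, 0 had an unadjusted p under 0.05, where 35.0% of all genes had one. The 95% intervals lay within -0.33 and 0.43.

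Single probes of a gene spread widely. The SD over the 11 Met probes was 0.76 in ARF-128, 0.52 in ARF-129, 0.40 in ARF-112 and 0.54 in ARF-104. The Met probe shown as below read -1.002 for ARF-129, -0.60 for ARF-128, -0.52 for ARF-112 and -0.83 for ARF-104, and the one shown as above read 0.60, 1.02, 0.52 and 1.08. The probes shown for Met, Egfr, Erbb2 and Igf1r were chosen for keeping their side of the flank on every array. That they did so is therefore not a result. The Erbb2 probe shown as above read 1.08 for ARF-129, 0.59 and 0.80 for ARF-128 (denser and sparser), 0.99 for ARF-112, 0.30 for ARF-110 and 0.78 for ARF-104. Its counterpart read between -0.68 and -0.40. The Egfr pair differed likewise, the probe shown as below lying between -1.40 and -0.73 and the other between 0.29 and 1.26. The Igf1r probe shown as below was uneven, at -1.40 for ARF-129, -2.82 for ARF-128, -0.41 for ARF-112 and -0.16 for ARF-104.

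**Figure D4:**
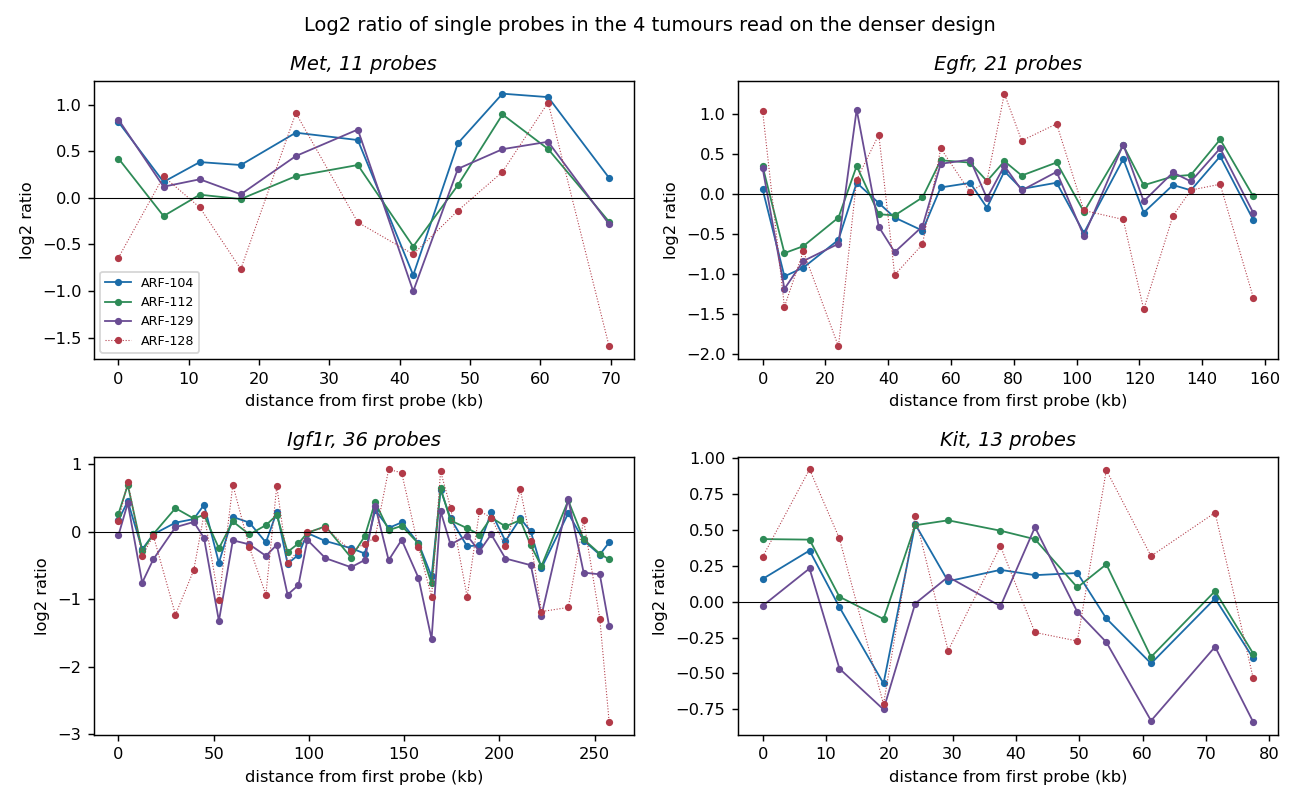
Log2 ratio (y axis) of every probe of Met, Egfr, Igf1r and Kit against its distance from the gene's first probe in kb, in the 4 tumours read on the denser design. The lines of ARF-104, ARF-112 and ARF-129 share their peaks and troughs, and those of ARF-128 (dotted) spread more widely.

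Of the 113 probes, 68 were on the same side of their flank on every array that read them, 38 above and 30 below, where 56.1% of all gene probes were. Once each gene's mean was subtracted, the probe values correlated between ARF-104, ARF-112 and ARF-129 with r from 0.87 to 0.89 over the 113 probes, less 1 without a value in ARF-129. The correlation of these tumours with ARF-128 was between 0.52 and 0.55. Over the 18 shared probes r was 0.62 between ARF-110 and the sparser ARF-128 array, which share a design. It was 0.08 between the 2 ARF-128 arrays, which share a tumour. These 2 values cannot be compared, because the subtracted means differ. On the sparser design the mean covered only the 1 to 3 shared probes of a gene. On the denser design it covered all its probes. Axl, Fgfr1 and Kdr, with 1 shared probe each, therefore had no deviation left on the sparser design. ARF-104, ARF-112 and ARF-129 share a scan day, a design and the C57BL/6J DNA as partner, so these points are not independent. GC content ranged from 26.7% to 48.9%, and its correlation with the difference from the flank was between 0.21 and 0.32 on the 4 denser arrays. The sites of AluI and RsaI, the enzymes that cut the DNA before labelling, are AGCT and GTAC, and 0 of the 113 probes held either. The part of GC content, scan day and design in these values was not tested beyond the alternatives in the closing section.

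Since the probes of 1 gene shared a pattern between tumours, tumours were also compared probe by probe. The 35 Igf1r probes read in both tumours were on average lower in ARF-129 than in ARF-104, with a mean difference of -0.34 (SD over probes 0.29). The 13 Kit probes were on average lower in ARF-129 than in ARF-112, with a mean difference of -0.40 (SD 0.19). Not every probe of these genes was lower. Egfr was higher in ARF-112 than in ARF-104 by 0.22 (SD 0.12 over 21 probes). Met was lower in ARF-112 than in ARF-104, with a mean difference of -0.33 (SD 0.23 over 11 probes). In each case the SD over paired probes was below that of the single values, and probes are readings of 1 hybridisation, not replicates of a tumour. The parts of Egfr with lower and higher coordinates also differed in their means on every denser array. Its 10 probes of lower coordinate averaged -0.20 for ARF-129, -0.31 for ARF-128, -0.07 for ARF-112 and -0.29 for ARF-104. Its 11 probes of higher coordinate averaged 0.13, -0.03, 0.26 and 0.04 in that order. This split, at the middle of the probe order, was made after the values were seen and has no test. Both parts held probes above and below the flank. Averaged over the denser arrays, single probes ran from -1.07 to 0.46 in the lower part and from -0.45 to 0.59 in the higher part. The means therefore do not place a step along the gene. For Igf1r the 18 probes of lower coordinate averaged -0.17 in ARF-128 and the other 18 averaged -0.26, and the parts lay closer together in the other tumours.

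Other genes of the pathways were counted from fixed lists. Of 43 other receptor tyrosine kinases tested against 0, 1 rose and 1 fell, where 8.11% and 6.73% of all genes did, and 7 had an unadjusted p under 0.05, where 35.0% of all genes had one. The first was Erbb3, the ERBB family member with little kinase activity, with a mean log2 ratio of 0.41 ± 0.19 (limma adjusted p = 0.0321, above 0 in 5 of 5 tumours). Tie1, an endothelial receptor, had a mean of -0.40 ± 0.26 (adjusted p = 0.0495, below 0 in 5 of 5). The segments over Erbb3 were called in ARF-110 alone, at 0.27, and were between -0.08 and -0.01 in the other tumours, so the probes of Erbb3 were high where its segment was not. Of 42 such receptors tested against their flanks 4 were higher and 3 lower, close to the 8.75% and 8.54% of all genes. The higher ones were Erbb3, Epha10, Ephb2 and Ror2, with mean differences from 0.18 to 0.41. The lower ones were Ryk, Insrr and Tie1, from -0.35 to -0.19. Epha10 was read by 1 probe.

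Of 35 ligands of the 10 receptors or of other receptors in their families, 3 rose and 2 fell against 0. These were close to the shares of all genes (8.11% and 6.73%). Fgf8 averaged 0.87 ± 0.28 (limma adjusted p = 0.0123), and a gain was called over it in 5 of 5 tumours, with segment means from 0.27 to 0.58 on chromosome 19. Pdgfb, which encodes a ligand of PDGFRB and PDGFRA, had a mean of 0.71 ± 0.47 (adjusted p = 0.0279), with segments on chromosome 15 gained in ARF-110, ARF-112 and ARF-129. Fgf3 averaged 0.71 ± 0.48 on a single probe (adjusted p = 0.0299), below 0 in ARF-110 and above 0 in the other tumours, with no gained segment and a lost one in ARF-129 (-0.35). Fgf9 averaged -0.50 ± 0.26 (adjusted p = 0.0272) and was lost by segment in ARF-112. Fgf8 too was read by a single probe, Pdgfb by 3 and Fgf9 by 6. The other lower ligand was Fgf18, at -0.46 ± 0.29 (adjusted p = 0.0382). Of 34 ligands tested against their flanks, Fgf3, Fgf8, Pdgfb and Hbegf were higher, by 0.28 to 0.74, and Fgf1, Fgf9 and Fgf18 lower, at -0.46 to -0.21. Over all genes 17.3% passed in either direction.

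Among 26 adaptors and effectors of the receptors 0 passed against 0, and 1 had an unadjusted p under 0.05, where 14.8% and 35.0% of all genes did. Against their flanks 2 of 26 were higher and 1 lower, where 8.75% and 8.54% of all genes were. Gab1 and Shc3, which encode docking proteins, were higher by 0.30 and 0.16. Vav1, which encodes an exchange factor of blood cells, was lower at -0.34. Of 26 listed inhibitors of receptors or regulators of ligands, 1 rose and 0 fell, where 8.11% and 6.73% of all genes did. It was Ptpn6, which encodes the phosphatase SHP-1, at 0.37 ± 0.09 (limma adjusted p = 0.0284). Against the flanks 1 of 26 genes of this list was higher and 2 were lower, where 8.75% and 8.54% of all genes were. The phosphatase gene Ptprf was higher by 0.23, and Spint2 and Socs1 were lower at -0.28 and -0.59. Socs1 was read by 1 probe. The genes named for their flanks and Fgf18 were chosen after their values were seen. The medians against 0 were -0.06 for the other receptors, -0.05 for the ligands and 0.00 for the adaptors. For the list of inhibitors and regulators the median was 0.05, and over all genes it was -0.01. With scan day as a random block, 0 of the 8 listed genes that passed against 0 did so again (limma adjusted p from 0.0636 to 0.180), and 0 of the 20 that passed against their flanks (0.342 to 0.439). With ARF-129, ARF-112 or ARF-104 left out in turn, 0 genes of the whole table passed limma's test, so none of these calls held. Then 4874 to 5540 genes had an unadjusted p under 0.05 against 0, and 5266 to 5557 against their flanks.

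Genes on other chromosomes with the most similar values over the 5 tumours were found for the 3 receptors with the largest absolute mean. Likeness was the root mean square difference of log2 ratios among genes with at least 10 probes. For Met they were LOC547349 (0.0759) and AK161758 (0.0992), both on chromosome 17. For Igf1r they were AK157981 (0.0579) and Cdk6 (0.0583), both on chromosome 5, and Cdk6 encodes a kinase of the cell cycle. Kdr was most like Tspan18 on chromosome 2 (0.0606) and A330068P14Rik on chromosome 11 (0.0743). Between 2893 and 2935 genes were compared for each receptor, over 5 values each.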

How the data were processed

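Genomic DNA of 5 mouse tumours was measured on 6 two-colour Agilent arrays of 2 designs. Per the file headers, each spot's processed red and green intensity was made by the authors in Agilent Feature Extraction, version 8.5.1.1 on the sparser design, 9.5.3.1 on the denser ARF-128 array and 9.1.3.1 on the remaining arrays. A log10 ratio per spot is deposited beside them. The deposited value table repeats those ratios, in log10 on the sparser and in log2 on the denser design, and its column medians, from 0 to 0.0491, show that it was not centred. The mm7 build is named in the header of the denser ARF-128 file. For the sparser design no build was found in the headers, and its probes were placed through shared names.

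From the processed intensities the log2 ratio of red over green was computed, control and outlier spots were left out, spots of 1 probe were averaged, and the autosomal median of the array was subtracted. Genes were summarised by the mean over their probes, and a flank needed at least 5 probes. Of the gene names, 81 lay on several chromosomes and were left out. The ARF-129 value of 1 Igf1r probe was an outlier spot, so 35 probes were averaged there. Means over tumours were tested with limma 3.58.1 (intercept, eBayes, Benjamini-Hochberg over all genes, threshold 0.05), which leaves out the spread of the C57BL/6J DNA. Probe noise was the median absolute neighbour difference scaled to an SD. Segments came from penalised least squares (PELT, penalty 5 log n). No count underlies an intensity, and the number of arrays limits the precision. Scripts were tested on simulated data, with noise of each gene's own SD and a shift shared by the 5 tumours. Against 0, limma recovered 0% of shifts of 0.3, 28% of 0.6 and 88% of 1. Against the flank it recovered 18%, 62% and 72%. A gene that did not pass can therefore still carry a shared shift of 0.3 or 0.6. The work used Python 3.11.15 with numpy 2.4.6, numba 0.67.0, pandas 2.3.3 and matplotlib 3.10.9, and R 4.3.3 with statmod 1.5.0.

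The receptor genes, the gene lists and the tests were chosen with earlier results of these data known. All receptor genes were named, from each list up to 4 genes with the largest absolute mean among those passing against 0, and for 3 receptors the most similar genes on other chromosomes. A table of the GRCm38.p6 assembly served for names only, and exon and intron positions were not used here.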

Additional observations from a re-analysis of the deposited data

Results flagged for a closer look

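In 30 sets of 5 tumour values (own probes, flanks and their difference for 10 genes), 3 had 1 tumour far from the other 4, with a gap to the nearest value of more than 0.71 of the whole range. Chance gives about 1 such set in 20. Igf1r's own probes minus its flank were -0.2708 in ARF-128, far below the other tumours, which lay between 0.01 and 0.10. On the sparser ARF-128 array the same difference was 0.12. The flank of Igf1r was -0.4229 in ARF-129, and the flank of Axl was -0.2854 in the same tumour, both on chromosome 7, whose mean in ARF-129 was -0.41.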

How the results depend on the processing

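Of 330 values of receptor genes recomputed under alternatives, 277 kept their direction and their side of the threshold, 46 changed direction and 9 passed an adjusted p of 0.05, of which 2 also changed direction. Of these 9, 6 came from the 18 probes of both designs alone, which against 0 gave Erbb2 0.45 (limma adjusted p = 0.0305, range over alternatives 0.0305 to 0.999) and Pdgfra 0.39 (0.0432, range 0.0432 to 0.992). Against the flank they gave Egfr -0.36 (0.032, range 0.032 to 0.741), Erbb2 0.42 (0.0309, range 0.0309 to 0.994), Pdgfra 0.48 (0.0298, range 0.0298 to 0.787) and Axl 0.37 (0.0381, range 0.0381 to 0.985). On those probes 22.2% of all genes passed against 0 and 26.7% against their flanks. The same probes turned Igf1r to 0.0307, Axl to 0.29 and Kdr to -0.29 against 0, and Fgfr1 to 0.22, Igf1r to 0.16 and Kdr to -0.16 against the flank. The other 3 of the 9 are Met and Kdr, given above. The other changes of direction follow. Against 0, medians of probes gave Egfr 0.0486, Erbb2 -0.0609 and Fgfr1 -0.0041, and segment means gave Pdgfra, Kit and Kdr -0.12 and Pdgfrb -0.0080. GC correction, chosen after seeing the data, gave Erbb2 -0.0486 and Pdgfrb -0.0410, normexp gave Axl 0.0200 and the sparser ARF-128 array gave Kdr -0.0593. Against the flank, a width of 500 kb gave Met -0.0059 and Erbb2 0.0019, and 2 Mb gave Pdgfrb 0.0236, Igf1r 0.0264 and Axl 0.0270. Scan day as a random block gave Met -0.0364, Erbb2 0.0041 and Pdgfrb 0.0266, medians gave Egfr 0.0407 and Pdgfrb 0.0361, and normexp gave Pdgfrb 0.0152 and Axl 0.0042. The mean of both ARF-128 arrays gave Erbb2 0.0085, Igf1r 0.0217 and Axl 0.0119, and the sparser array gave Erbb2 0.0378, Igf1r 0.0605 and Axl 0.0405. With each tumour left out in turn, the means against 0 ranged from -0.00014 to 0.0847 for Erbb2 and from -0.0019 to 0.0939 for Pdgfra. Those against the flank ranged from -0.0176 to 0.0756 for Met, -0.0427 to 0.0061 for Pdgfrb, -0.0472 to 0.0463 for Igf1r and -0.0520 to 0.0229 for Axl. Over all genes, the counts against 0 were 1615 higher and 1340 lower. They were 3 and 3 with the scan-day block, 2906 and 2527 when ARF-128 was averaged over its arrays, and 2953 and 2233 with the sparser one. Segment means gave 671 and 0 (1448 lower at an unadjusted p under 0.05), normexp gave 471 lower and the shared probes 2085 higher and 2341 lower. Leaving out tumours gave 0 to 2273 higher and 0 to 2007 lower. Against the flanks, 1732 higher and 1692 lower turned to 0 and 0 with the block (1443 and 1435 unadjusted), 3665 and 3424 with both ARF-128 arrays, and 2702 and 2590 on shared probes. The sparser array gave 3022 higher and medians 1127 higher. Leaving out tumours gave 0 to 3176 higher and 0 to 3181 lower, with 2654 and 2612 or more at an unadjusted p under 0.05. Scan-day blocks hold ARF-104, ARF-112 and ARF-129 in 1 block and each other tumour alone. A segment threshold of 0.15 gave 7 gains of receptor genes and normexp 1 loss, and leaving out tumours gave 2 to 4 gains and 1 to 6 losses. The causes were not tested. No paired analysis was possible because there is 1 group of tumours. The noise of ARF-128 and the few probes of ARF-110 limit what single tumours can show.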
